A study of Mus musculus with 37 samples.

Results

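Expression of 10 cytokine genes was followed in bone marrow-derived macrophages (BMDMs) after activation of TLR4, the receptor for bacterial lipopolysaccharide. The genes were Tnf, Il6, Il10, Il12a, Il12b, Il23a, Il27, Osm, Lif and Ifnb1, chosen by their symbols among the 24016 genes of the deposited table, each matching 1 RefSeq transcript. In most cells of this lineage TNF is among the first cytokines released after TLR4 activation, and IL-6 and the IL-12 family follow and direct the responses of lymphocytes. IL-10 is the main cytokine that restrains this program. The IL-12 family is made of shared subunits, so a secreted cytokine needs the products of a pair of genes: Il12a with Il12b for IL-12, Il23a with Il12b for IL-23, and Il27 with Ebi3 for IL-27.

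PolyA RNA was sequenced in 8 libraries, 1 for each of 2 genotypes at 4 times after addition of Kdo2-lipid A (KLA), the part of lipopolysaccharide that TLR4 binds. WT BMDMs came from C57BL/6J mice and Arntl-/- BMDMs from mice that lack the clock transcription factor Bmal1, made on a C57BL/6 background; the mice were males of 6 to 9 weeks, and bone marrow cells of both genotypes were grown with M-CSF for 6 days. KLA was given for 0, 6, 24 or 48 h. The study's text also calls the WT mice littermates, so whether the genotypes shared litters is not settled. The sources name no promoter or Cre that would limit the knockout to a cell type, and the number of mice behind a library and whether marrow was pooled are not given in the sources used here. The 29 ChIP-seq and input samples of the series were not analysed here. With 1 library per condition there is no replicate, so no difference below has a test, and intervals cover counting error only. In RNA from whole cultures, fewer cells that express a gene and less RNA per cell cannot be told apart.

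Values are FPKM, reads per kb of exon per 10000000 reads in this table, divided by a size factor for each library (0.918 to 1.13) and called scaled FPKM below. Libraries held 8587560 to 27036783 reads on genes, and the deepest was WT at 6 h. The number of reads behind each value could be worked out, and a value of 3 or fewer reads is at the floor. A gene is called higher or lower when it differed at least 1.5-fold on log2(scaled FPKM + 0.1), and 11981 genes with a mean of at least 20 reads were compared. Of the 10 cytokine genes, 7 passed this minimum; Il12b, Il23a and Ifnb1 did not, with means of 11, 1.5 and 0.625 reads, and they enter no count of calls. Of the 7, only Tnf and Osm had means over 100 reads (2334 and 373.4); the means of the other 5 were between 30.4 and 81.1.

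Arntl was lower in every Arntl-/- library (11.3 to 20.2 scaled FPKM) than in every WT library (32.3 to 38.7). All 7 macrophage markers were over the floor in all libraries. Their summed scaled FPKM was 18455, 13630, 23836 and 34703 in WT BMDMs at 0, 6, 24 and 48 h. In Arntl-/- BMDMs it was 15479, 18246.5, 22381 and 30267. From 0 to 6 h the sum thus fell in WT and rose in Arntl-/- BMDMs, and it was highest at 48 h in both. The 7 stromal markers were over the floor too, and their sum was 393.6, 487.8, 549.0 and 1086 in WT BMDMs and 306.3, 343.0, 364.3 and 671.2 in Arntl-/- BMDMs at 0, 6, 24 and 48 h. The sum was thus lower in Arntl-/- BMDMs at each time and highest at 48 h in both genotypes. The single stromal genes went both ways, with 2 called higher and 3 lower in Arntl-/- BMDMs at 0 h, 1 and 2 at 6 h, and 2 and 3 lower at 24 and 48 h, when none was higher. The sum of 5 neutrophil markers was 345.5, 329.7, 456.0 and 917.9 in WT BMDMs at the successive times and 497.1, 586.7, 463.3 and 934.2 in Arntl-/- BMDMs, the higher at each time. Most of this sum was S100a8 (281.9 to 910.3), Mpo was at 0 in all libraries, and 2 or 3 of the 5 markers were at the floor in each. The study's introduction cites earlier work in which Bmal1 directly suppressed S100a8. The sum of 7 lymphocyte markers was 6.23, 6.70, 14.3 and 16.0 in WT BMDMs and 7.88, 6.34, 18.4 and 9.43 in Arntl-/- BMDMs, with the T cell gene Cd3e at 0 throughout, and that of 5 dendritic cell markers was at most 3.61. The part of any of these cell types in the cytokine values was not tested.

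To show where these genes start, the 150 bases before the RefSeq start are printed for the NF-κB target Il6, for Il12a and Il27, which had the largest genotype differences that rest on over 10 reads in both libraries, and for Il12b, the partner of Il12a. Sequences are from RefSeq on mm9 (NCBIM37), read 5′ to 3′ in the direction of transcription, and capitals mark matches on either strand of a loose form of the NF-κB site, GGG and CC with any 5 bases between them, overlapping matches merged.
Il6, chr5:30339551-30339700, plus strand: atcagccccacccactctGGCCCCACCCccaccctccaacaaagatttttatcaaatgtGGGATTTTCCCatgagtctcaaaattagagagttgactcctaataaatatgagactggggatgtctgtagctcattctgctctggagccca
Il12a, chr3:68495196-68495345, plus strand: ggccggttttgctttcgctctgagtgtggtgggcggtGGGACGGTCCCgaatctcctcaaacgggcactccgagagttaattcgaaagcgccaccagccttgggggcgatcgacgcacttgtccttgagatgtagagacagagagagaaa
Il27, chr7:133738425-133738574, minus strand: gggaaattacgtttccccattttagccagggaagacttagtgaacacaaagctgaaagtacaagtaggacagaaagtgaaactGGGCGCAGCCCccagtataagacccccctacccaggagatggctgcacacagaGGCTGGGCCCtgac
Il12b, chr11:44213415-44213564, plus strand: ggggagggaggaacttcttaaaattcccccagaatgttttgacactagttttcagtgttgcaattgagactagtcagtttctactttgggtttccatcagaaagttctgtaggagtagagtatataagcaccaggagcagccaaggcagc

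The Il6 stretch holds 1 pair of overlapping matches, from 91 to 81 bases before the start, and a match farther upstream. The first of the pair also matches a stricter form, GGGA and TTTCC with any base between them, which 0.344% of 23820 promoters hold within 250 bases before the start and which was found in no other of the 10. The Il12a stretch has overlapping matches from 113 to 103 bases before the start. The Il27 stretch has a pair from 67 to 57 bases and another match from 14 to 5 bases before the start, and just upstream of them, from 79 to 70 bases, a pair of GAAA with 2 bases between them, a core of interferon-stimulated response elements that 3.09% of promoters hold. The loose motif itself is common: 8 of the 10 genes had it within 250 bases, beside 50.7% of all promoters, and Il12b and Lif had none. CACGTG, the E-box that Bmal1 and Clock bind, was in none of the 10 promoters and in 6.60% of all, and TGANTCA, an AP-1 site, was in that of Il23a alone, beside 6.15% of all. TATAAA was found before Tnf, Il10 and Ifnb1, beside 11.9% of all. These matches describe letters in a window and say nothing of binding in these cells.

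Tnf, the proinflammatory cytokine that signals through Tnfrsf1a and Tnfrsf1b, was by far the most expressed of the 10 per length. Its gene lies on chromosome 17 of mm9 (35336312 to 35338952, minus strand). Scaled FPKM was 508.0, 631.3, 468.4 and 490.6 in WT BMDMs at 0, 6, 24 and 48 h, and 604.8, 785.4, 522.2 and 425.0 in Arntl-/- BMDMs. It was thus highest at 6 h in both genotypes, and between 87.5% and 95.4% of the genes compared lay below it in each library. The lowest value of Tnf stood above the highest of any other member. Tnf was already high before KLA, and the 6 h library exceeded the 0 h library only 1.24-fold in WT BMDMs (95% counting interval, 1.18 to 1.31) and 1.30-fold in Arntl-/- BMDMs (1.24 to 1.36).

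The ratio of Arntl-/- to WT for Tnf was 1.19 before KLA and 1.24, 1.11 and 0.866 after 6, 24 and 48 h, so no time reached 1.5-fold. With 899 to 5080 reads the counting error was small (1.12 to 1.26 at 0 h and 0.792 to 0.947 at 48 h), which says nothing of the spread between cultures. The authors counted at most 3 tags per position, and Tnf had 3.08 reads per base of exon in WT BMDMs at 6 h against 0.546 to 1.996 in the other libraries. What this limit took from the WT 6 h value was not tested. After a correction of each library for its relation to expression level, the log2 difference between genotypes at 6 h moved from 0.32 to 0.08.

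Osm encodes oncostatin M, an IL-6 family cytokine that signals through gp130 (Il6st) with Osmr or Lifr. It lies on chromosome 11 (4136788 to 4141029, plus strand), less than 30 kb from Lif. Scaled FPKM was 81.6, 107.9, 87.3 and 24.8 in WT BMDMs and 71.4, 84.8, 82.7 and 35.2 in Arntl-/- BMDMs. The level thus stayed within 1.5-fold of its starting value for 24 h and was lowest at 48 h in both genotypes. From 24 to 48 h it fell 3.51-fold in WT BMDMs (ratio 0.285, 0.213 to 0.375) and 2.35-fold in Arntl-/- BMDMs (0.426, 0.333 to 0.539), from 278 to 63 and from 394 to 86 reads. Between genotypes the ratio was 0.875, 0.786, 0.948 and 1.42 at the successive times. At 6 h Arntl-/- BMDMs had less Osm (interval 0.699 to 0.883) and at 48 h more (1.01 to 1.99), both short of 1.5-fold.

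Lif, leukemia inhibitory factor, is the neighbour of Osm (chromosome 11, 4166799 to 4172517, plus strand) and signals through Lifr and gp130. Scaled FPKM was 5.42, 9.95, 6.57 and 7.14 in WT BMDMs and 6.57, 11.9, 6.05 and 9.32 in Arntl-/- BMDMs. The course was alike in shape in both genotypes, with the highest value at 6 h, 1.84-fold over 0 h in WT BMDMs (1.33 to 2.58) and 1.81-fold in Arntl-/- BMDMs (1.36 to 2.42). It then fell 1.52-fold and 1.97-fold by 24 h. Ratios between genotypes were 0.921 to 1.31, and every interval held 1.

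Il6 encodes IL-6, a proinflammatory cytokine that activates STAT3 through Il6ra and gp130 (chromosome 5, 30339701 to 30346508, plus strand). Scaled FPKM was 0, 14.4, 17.7 and 8.33 in WT BMDMs, from 0, 76, 32 and 12 reads. In Arntl-/- BMDMs it was 5.34, 12.0, 23.3 and 6.49, from 18, 33, 63 and 9 reads. Il6 thus peaked at 24 h in both genotypes, later than Tnf, although in WT BMDMs the ratio of 24 to 6 h was 1.23 with an interval of 0.786 to 1.88. It was low per length throughout, with at most 19.3% of the genes compared below it. Against 0 h it was 11.0-fold higher at 6 h in WT BMDMs with the library without a read set at 3 reads (interval of the reads from 8.73). In Arntl-/- BMDMs it was 2.25-fold higher (1.23 to 4.25).

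Before KLA, Il6 was at 18 reads in Arntl-/- BMDMs and at 0 in WT BMDMs. With the WT library set at 3 reads it was 4.07-fold higher in Arntl-/- BMDMs, and the interval of the reads starts at 2.98. At the later times the ratio was 0.835, 1.32 and 0.779 and its intervals held 1. Il6 thus passed 1.5-fold between genotypes in the untreated cells alone, on 18 reads. These reads can come from as few as 3 fragments, since a fragment has 2 mates and each position could count up to 3 tags, giving up to 6 reads; with reads divided by 6, the interval at 0 h held 1.

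Il10, the anti-inflammatory cytokine that acts through Il10ra and STAT3, lies on chromosome 1 (132916422 to 132921547, plus strand). Scaled FPKM was 14.9, 17.5, 11.0 and 15.6 in WT BMDMs and 18.2, 20.3, 18.4 and 3.60 in Arntl-/- BMDMs. Values stayed between 11.0 and 20.3 in 7 of the libraries, and the library of Arntl-/- BMDMs at 48 h stood apart below them. That library had 6 reads on Il10 against 27 in WT BMDMs at 48 h and 60 in Arntl-/- BMDMs at 24 h. Its ratio to WT was 0.231 (0.0779 to 0.571), and to 24 h 0.195 (0.0688 to 0.450). At 24 h the order of genotypes was the opposite, 1.67-fold higher in Arntl-/- BMDMs (1.03 to 2.81). At 6 h Il10 was within 1.5-fold of its 0 h level, with ratios of 1.17 in WT and 1.11 in Arntl-/- BMDMs.

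Il12a encodes p35, a subunit of IL-12 (chromosome 3, 68495346 to 68502469, plus strand). Scaled FPKM was 4.48, 6.81, 29.8 and 17.2 in WT BMDMs, from 12, 42, 63 and 29 reads. In Arntl-/- BMDMs it was 5.58, 19.0, 42.4 and 37.0, from 22, 61, 134 and 60 reads. Il12a was thus highest at 24 h in both genotypes, and it was higher in Arntl-/- BMDMs at all 4 times, as were 8.16% of the genes compared. By 6 h it had risen 3.41-fold in Arntl-/- BMDMs (2.06 to 5.83) and 1.52-fold in WT BMDMs (0.785 to 3.17). From 6 to 24 h the increase was 4.38-fold in WT BMDMs (2.91 to 6.63) and 2.23-fold in Arntl-/- BMDMs (1.63 to 3.07). By 48 h it had fallen 1.73-fold from the peak in WT BMDMs, and in Arntl-/- BMDMs the ratio of 48 to 24 h was 0.873 (0.633 to 1.19).

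The ratio of Arntl-/- to WT for Il12a was 1.24 (0.590 to 2.76) before KLA and then 2.79 (1.85 to 4.24), 1.42 (1.05 to 1.95) and 2.15 (1.36 to 3.47) after 6, 24 and 48 h. It passed 1.5-fold at 6 and 48 h, and at 6 h 99.7% of the genes compared had a smaller log2 difference. With reads divided by 6 the intervals held 1 at every time, the nearest being 6 h with a lower bound of 0.965.

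Il12b encodes p40, which IL-12 and IL-23 share (chromosome 11, 44213565 to 44227519, plus strand). WT libraries had 7, 14, 0 and 2 reads and Arntl-/- libraries 16, 18, 25 and 6. Scaled FPKM was 1.70, 1.48, 0 and 0.772 in WT BMDMs and 2.64, 3.65, 5.14 and 2.41 in Arntl-/- BMDMs, so the Arntl-/- libraries were the higher at each time. At 6 h the ratio was 2.47 (1.16 to 5.37). At 24 h it was 5.57 with the WT library without a read set at 3 reads, and the counting interval of the reads starts at 4.21. With reads divided by 6 the interval held 1 at each time. At 0 h (ratio 1.55, 0.604 to 4.46) and 48 h (3.12, 0.557 to 31.6) the intervals held 1. The ratio at 48 h is against a WT value at the floor, of 2 reads. Per length Il12b stood below Il12a in every library.

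Il23a, the p19 subunit of IL-23 (chromosome 10, 127733196 to 127735140, minus strand), was detected only at 6 h, with 8 reads in WT and 4 in Arntl-/- BMDMs, 1.21 and 1.16 scaled FPKM. The other 6 libraries had no read on it. Ifnb1, interferon-β (chromosome 4, 88167929 to 88168698, minus strand), had no read in any WT library, and 1 and 4 reads in Arntl-/- BMDMs at 0 and 6 h. For both genes the reads are too few to compare the genotypes.

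Il27 encodes p28, the subunit particular to IL-27 (chromosome 7, 133732809 to 133738424, minus strand). Scaled FPKM was 17.5, 46.9, 32.5 and 12.9 in WT BMDMs, from 26, 160, 38 and 12 reads. In Arntl-/- BMDMs it was 24.7, 46.7, 35.4 and 34.5, from 54, 83, 62 and 31 reads. Il27 was thus higher at 6 h than at 0 h in both genotypes, 2.67-fold in WT BMDMs (1.76 to 4.21) and 1.89-fold in Arntl-/- BMDMs (1.33 to 2.71). With reads divided by 6, both intervals held 1 (from 0.959 and from 0.759). By 48 h the WT level had fallen 2.52-fold from 24 h, whereas the ratio of 48 to 24 h in Arntl-/- BMDMs was 0.975 (0.612 to 1.52). The genotypes were nearly equal at 6 h (ratio 0.997, 0.756 to 1.31) and differed 2.68-fold at 48 h (1.34 to 5.74), higher in Arntl-/- BMDMs and resting on 31 and 12 reads. Its partner Ebi3 was far more expressed per length, at 413.3, 512.9, 494.5 and 496.5 scaled FPKM in WT BMDMs and 456.4, 590.0, 433.9 and 522.4 in Arntl-/- BMDMs. Ebi3 was within 1.5-fold between the genotypes at each time.

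**Figure D1:**
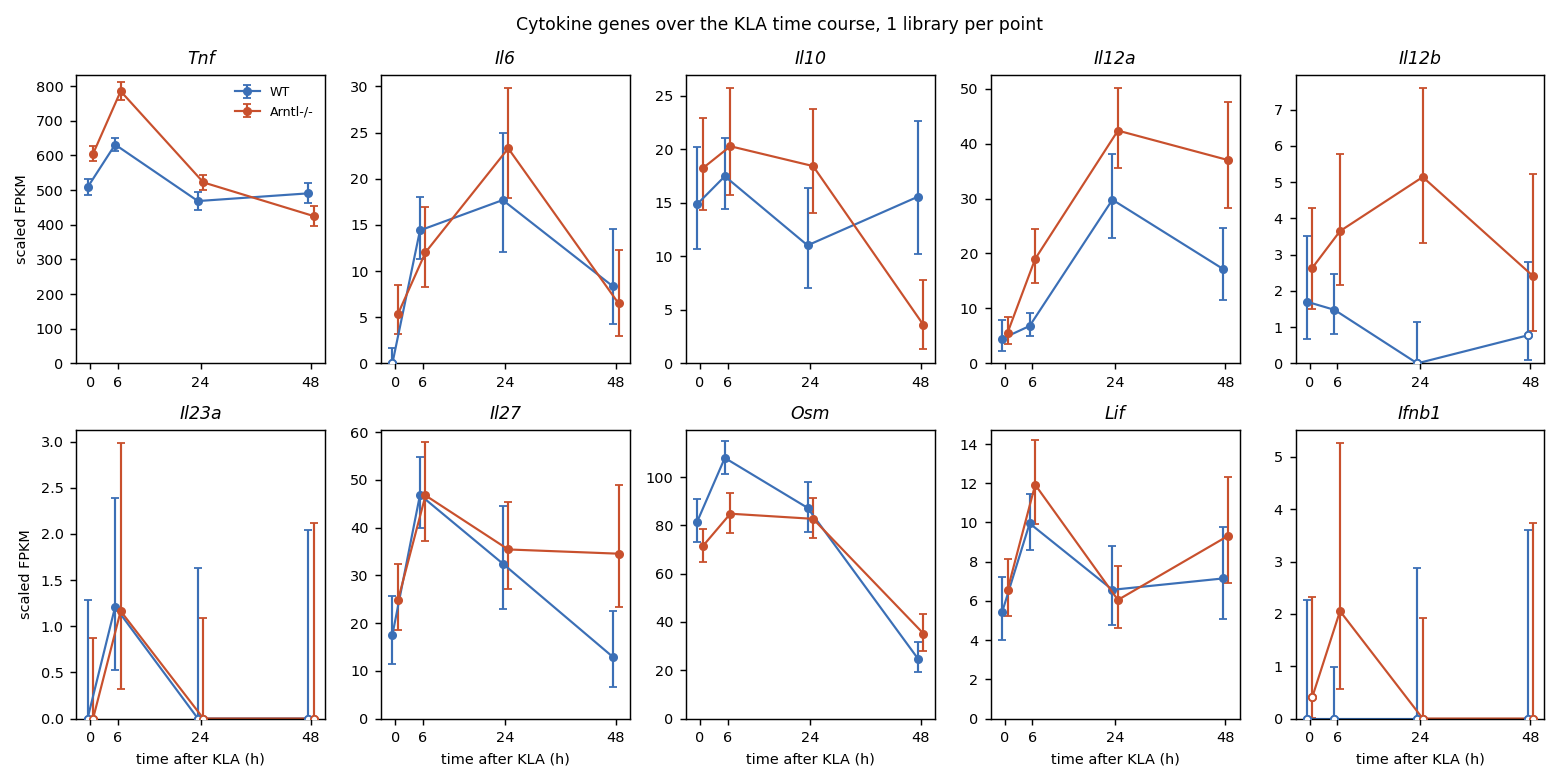
Scaled FPKM (vertical axes, linear, from 0) of the 10 cytokine genes against hours after KLA in WT (blue) and Arntl-/- (orange) cells, 1 library per point with its 95% counting interval and open points at the floor of 3 reads; the genotypes are shifted slightly sideways. Il12a is higher in Arntl-/- BMDMs at all 4 times (42.4 against 29.8 at 24 h), and Il10 in Arntl-/- BMDMs at 48 h (3.60) stands apart from its other 7 values.

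Ordered by the median over the 8 libraries, scaled FPKM was 515.1 for Tnf, 82.1 for Osm, 33.5 for Il27, 18.1 for Il12a, 16.5 for Il10, 10.2 for Il6, 6.86 for Lif and 2.05 for Il12b, with Il23a and Ifnb1 at 0. Tnf did not overlap with Osm (24.8 to 107.9), nor Lif (5.42 to 11.9) with Il12b (0 to 5.14). All other neighbours in this order overlapped in range. The time of the highest value was the same in both genotypes for each of the 7 genes: 6 h for Tnf, Il10, Il27, Osm and Lif, and 24 h for Il6 and Il12a. Of all genes compared, 22.0% in WT BMDMs and 18.5% in Arntl-/- BMDMs were highest at 6 h, and 18.8% and 19.9% at 24 h. The time was the same in both genotypes for 48.4% of all genes.

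To see the course of the response, successive times were compared within each genotype. From 0 to 6 h, 4 of the 7 cytokine genes were higher in WT BMDMs (Il6, Il12a, Il27 and Lif) and none lower, where 12.9% of all genes compared changed, 8.06% higher and 4.81% lower. The same 4 were higher in Arntl-/- BMDMs, where 10.8% changed, 4.91% higher and 5.87% lower. The median log2 change was 0.59 and 0.85, against -0.02 and 0.00 over all genes. All 7 were above their 0 h value at 6 h by some margin in both genotypes. Genes with few reads pass the 1.5-fold line more often. Of the 1797 genes with a mean of 20 to 100 reads, the range that held 5 of the 7 cytokine genes, 40.3% changed in WT BMDMs and 39.3% in Arntl-/- BMDMs from 0 to 6 h, beside 4 of those 5 in each. The WT call of Il12a (log2 change of 0.59) lies just past the line and was lost with a pseudocount of 1 and with the correction for expression level.

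From 6 to 24 h, Il12a was higher and Il10 and Lif were lower in WT BMDMs, beside 20.1% of all genes changed, 8.48% higher and 11.6% lower. In Arntl-/- BMDMs Il6 and Il12a were higher and Tnf and Lif lower, beside 16.2% of all genes, 8.05% higher and 8.13% lower. The calls of Lif in WT BMDMs and of Tnf in Arntl-/- BMDMs, both -0.59 on the log2 scale, lie just past the line. The first was lost with a pseudocount of 1 and with the correction for expression level, and the second with upper-quartile scaling and with that correction, which also ended the call of Il10 in WT BMDMs (-0.46). Tnf in WT BMDMs, -0.43 as scaled here, was called lower with the FPKM as deposited (-0.62) and with the correction (-0.71). From 24 to 48 h, Il6, Il12a, Il27 and Osm were lower in WT BMDMs and none was higher, beside 22.9% of all genes changed, 10.8% higher and 12.1% lower. In Arntl-/- BMDMs Il6, Il10 and Osm were lower and Lif higher, beside 21.0% changed, 9.71% higher and 11.3% lower. This call of Lif (0.62) was lost with the FPKM as deposited (0.51) and with a pseudocount of 1 (0.55). Among the 1797 genes with few reads, 46.1% to 59.6% changed in these 4 comparisons, beside 3 of the 5 cytokine genes in that range in each comparison, which is near that share. Il6 and Osm fell after 24 h in both genotypes. With reads divided by 6, the counting interval left out a ratio of 1 for 2, 2 and 1 of the 7 genes in WT BMDMs at the successive steps. In Arntl-/- BMDMs the number was 1, 2 and 2. From 0 to 6 h the genes were Tnf and Il6 in WT BMDMs and Tnf in Arntl-/- BMDMs. For that step the intervals of Il12a, Il27 and Lif held 1 in both genotypes. The share of all genes was not worked out for these steps. Whether the genotypes differ in any of these changes has no test.

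**Figure D2:**
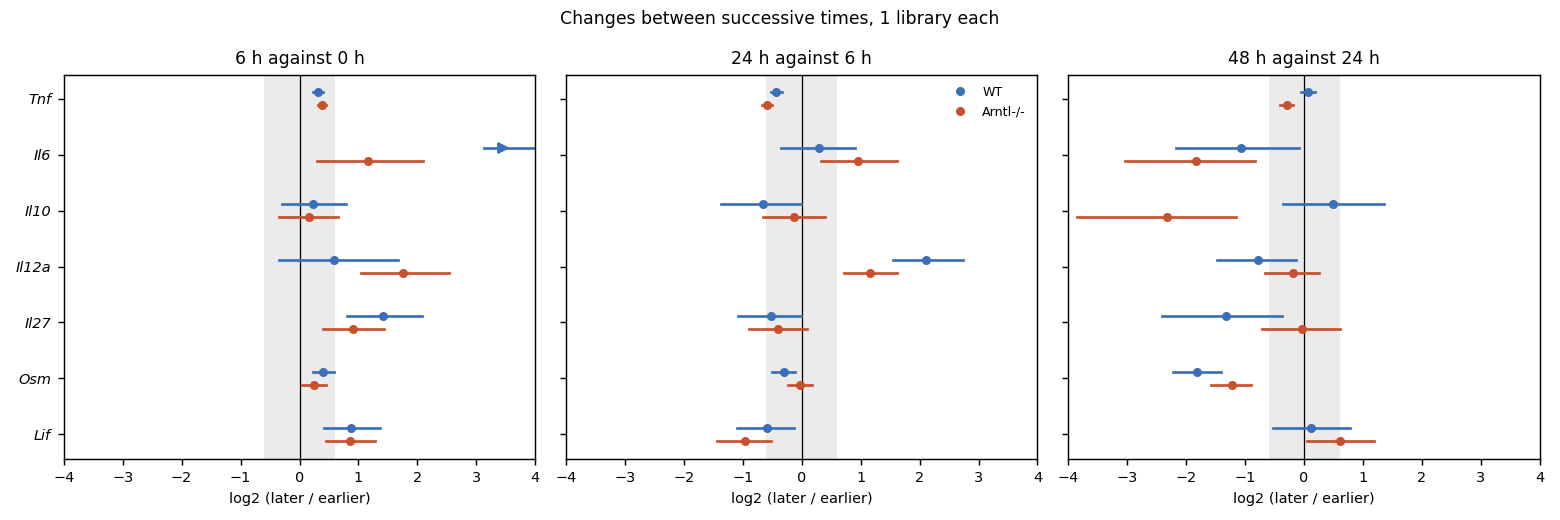
Log2 ratio of scaled FPKM of the later over the earlier time (horizontal axes) for the 7 cytokine genes compared, in WT (blue) and Arntl-/- (orange) cells, with 95% counting intervals of the reads; the grey band is less than 1.5-fold and an arrowhead is a lower bound. All 7 lie right of 0 from 0 to 6 h in both genotypes, and Osm lies left of the band from 24 to 48 h (-1.81 in WT and -1.23 in Arntl-/- BMDMs).

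The genotypes were then compared at each time. At 0 h, 1 of the 7 cytokine genes was called, Il6, higher in Arntl-/- BMDMs, where 9.72% of all genes compared were called, 5.98% higher and 3.75% lower. At 6 h it was Il12a, higher, beside 8.36% of all genes, 3.26% higher and 5.11% lower. At 24 h it was Il10, higher, beside 12.0%, 6.93% higher and 5.11% lower. At 48 h Il12a and Il27 were higher and Il10 lower, beside 17.7%, 9.65% higher and 8.03% lower. The counts of 1 at 0, 6 and 24 h are near the share of all genes, and the 3 at 48 h are above it. All these calls were among the 5 genes with means of 20 to 100 reads, and of the 1797 genes in that range 39.4%, 32.7%, 48.4% and 58.2% were called at 0, 6, 24 and 48 h. The 1 of 5 at the first 3 times is below that share, and the 3 of 5 at 48 h is near it. The median log2 difference of the 7 was 0.29, 0.21, 0.16 and 0.38, against -0.01, 0.00, 0.00 and -0.01 over all genes. The median at 0 h is the same with Il6 in the WT library set at 3 reads.

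The counting interval left out a ratio of 1 for 2, 3, 3 and 5 of the 7 genes at the successive times, beside 52.0%, 55.4%, 49.4% and 48.9% of all genes compared. With reads divided by 6, the widest allowance for reads of a single fragment, that number was 1, 1, 0 and 0, beside 14.0%, 19.2%, 11.0% and 9.41% of all genes, and the gene was Tnf at both 0 and 6 h. The libraries themselves show such groups of reads: in WT BMDMs at 48 h, 476 genes had exactly 6 reads, whereas 39 had 5 and 190 had 7. Values of a few reads here, such as the 6 reads of Il10 in Arntl-/- BMDMs at 48 h, could thus stand for 1 fragment.

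**Figure D3:**
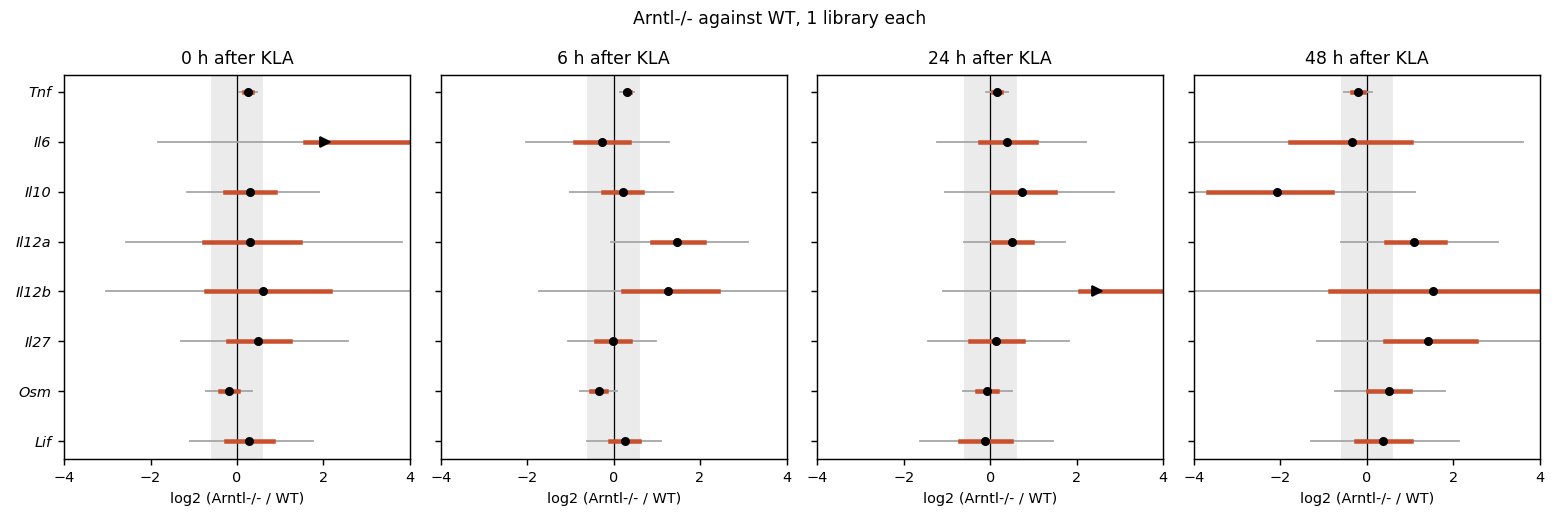
Log2 ratio of Arntl-/- over WT scaled FPKM (horizontal axes) for the 7 cytokine genes compared and Il12b at 4 times after KLA, with 95% counting intervals of the reads (orange) and of reads divided by 6 (grey); arrowheads are lower bounds, lines that reach the edge go on beyond it, and the grey band is less than 1.5-fold. Il12a and Il12b lie right of 0 at every time (1.47 and 1.25 at 6 h) and Il10 lies left of the band at 48 h (-2.08), while the grey lines cross 0 for all but Tnf at 0 and 6 h.

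Receptors of these cytokines were described as a list of 14, of which 12 were compared. Between genotypes, 2 were higher at 0 h, 1 was higher and 1 lower at 6 h, and 2 were higher at 24 and again at 48 h, beside 9.72%, 8.36%, 12.0% and 17.7% of all genes called; these counts are near that share. Il23r, the chain that makes the IL-23 receptor with Il12rb1, was higher in Arntl-/- BMDMs at all 4 times, at 36.9, 56.9, 110.2 and 66.1 scaled FPKM against 24.0, 34.9, 53.6 and 43.3 in WT BMDMs. Each of its values rests on 126 reads or more. Il12rb2, the second chain of the IL-12 receptor, declined over time in both genotypes, from 11.8 to 0 in WT BMDMs and from 19.6 to 3.99 in Arntl-/- BMDMs. Its call at 48 h rests on 0 reads in WT and 15 in Arntl-/- BMDMs. Lifr, the LIF receptor, was 7.46 in WT and 3.06 in Arntl-/- BMDMs at 6 h, from 103 and 22 reads. At 24 h it was 3.80 and 9.47, from 18 and 67 reads. The TNF receptors Tnfrsf1a and Tnfrsf1b were within 1.5-fold between genotypes at each time, and Tnfrsf1b rose from 1037 at 0 h to 1990 at 48 h in WT BMDMs and from 943.1 to 2138 in Arntl-/- BMDMs.

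Of 13 other ligands of the same families, 4 were compared, and 1, 1, 2 and 2 of them were called between genotypes at the successive times, all higher in Arntl-/- BMDMs. The genes called were Lta and, at 24 and 48 h, Ltb, the lymphotoxin genes that flank Tnf. Both had few reads, as did the genes of which 32.7% to 58.2% were called. Lta was 2.06, 7.88, 0 and 8.71 in WT BMDMs and 7.21, 14.9, 6.09 and 25.4 in Arntl-/- BMDMs, higher without Bmal1 at each time. Its reads were 6, 53, 0 and 16 in WT BMDMs and 31, 52, 21 and 45 in Arntl-/- BMDMs. Ltb was 11.3, 15.4, 12.6 and 8.25 in WT BMDMs and 11.8, 17.0, 28.2 and 23.6 in Arntl-/- BMDMs, and the genotypes differed by over 1.5-fold at 24 and 48 h. The summed lymphocyte markers were higher in Arntl-/- BMDMs at 0 and 24 h (7.88 against 6.23 and 18.4 against 14.3) and lower at 6 and 48 h (6.34 against 6.70 and 9.43 against 16.0). Only 1 of the 7 had enough reads to be compared. It was called higher in Arntl-/- BMDMs at 0 h (log2 difference of 0.85) and lower at 6, 24 and 48 h (-1.42, -1.29 and -2.04). The part of lymphocytes in the Lta and Ltb values was not tested. Tnf, which lies between Lta and Ltb, was within 1.5-fold at each time and at 48 h was the lower in Arntl-/- BMDMs (425.0 against 490.6).

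Of 13 transducers, all compared, Socs1, a feedback inhibitor of JAK kinases, was higher in Arntl-/- BMDMs at 0 h (51.4 against 27.6), and none was called at 6, 24 or 48 h, beside the same shares of all genes. Of 17 regulators, such as NF-κB subunits and inhibitors and RNA-decay factors that act on cytokine transcripts, none was called at 0, 6 or 24 h, and 2 were at 48 h, beside 17.7% of all genes. At 48 h Bcl3, an IκB protein that acts as a nuclear cofactor (305.6 against 189.0), and the NF-κB subunit Rel (49.6 against 32.3) were higher in Arntl-/- BMDMs. The median log2 difference of the transducers was 0.05, 0.10, 0.13 and 0.04 and that of the regulators 0.05, 0.06, 0.04 and -0.03. Over time, Socs3, the feedback inhibitor of gp130 signaling, rose from 183.1 at 0 h to 355.1 at 6 h and 527.0 at 24 h in WT BMDMs and from 185.2 to 407.3 and 576.7 in Arntl-/- BMDMs. Irf7, a factor for interferon transcription, was called higher at each successive time in both genotypes, from 236.8 to 1172 in WT BMDMs and from 281.8 to 1189 in Arntl-/- BMDMs. Ifnb1 itself had at most 4 reads.

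**Figure D4:**
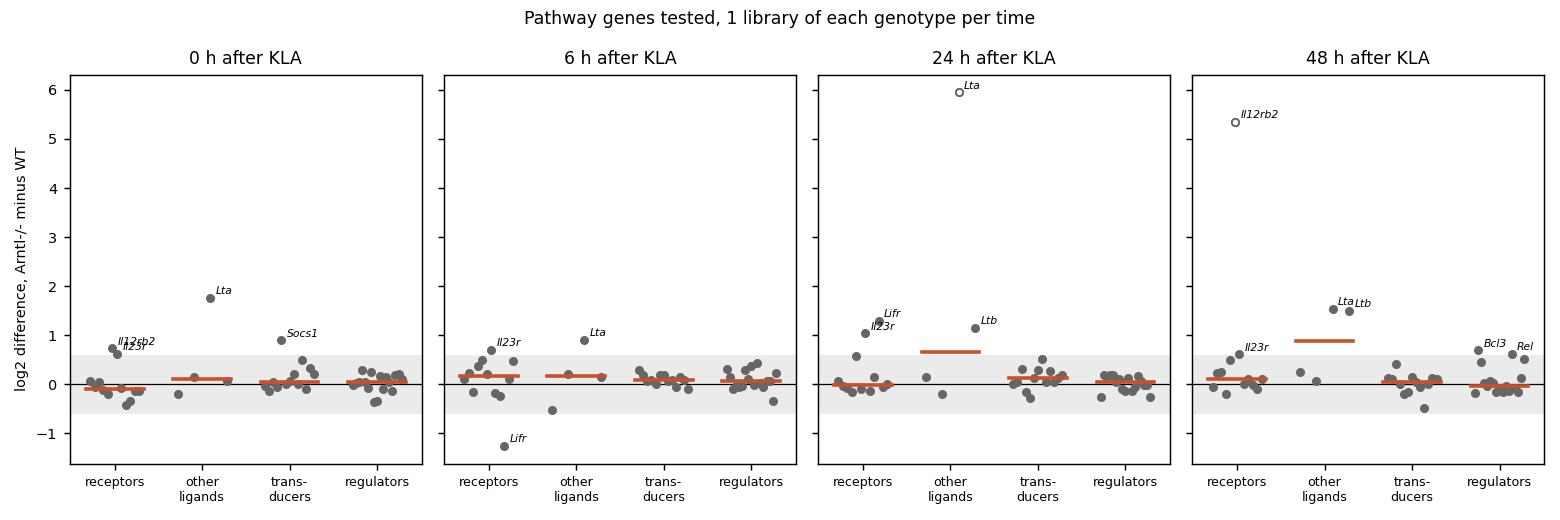
Log2 difference of scaled FPKM, Arntl-/- minus WT (vertical axis), of the pathway genes compared at 4 times after KLA, 1 point per gene, the list's median as an orange bar, the grey band within 1.5-fold and open points where a library is at the floor, whose height depends on the pseudocount. Il23r and Lta lie above the band at each time, and most transducers and regulators lie within it.

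Genes whose course was most like that of each cytokine gene were sought among the genes compared, by Pearson's r of log2(scaled FPKM + 0.1) over the 8 libraries, for the 6 genes over the floor in all of them. This describes likeness over libraries that share depth and time, and has no test. Tnf was most like Csf3 (r = 0.95), Lpar2 and Tmem97. Il12a was most like Ccdc88b, Suox and Nfil3 (each r = 0.97), and 170 genes passed r = 0.9 with it. Il10 was most like Nr1i3 (0.99), Ccr2 and Stfa2, Il27 most like Spg11 (0.98), Ggct and Capn10, and Osm most like Wdr5b (0.99), Cbx8 and Acyp2. Lif was most like Ppap2a (0.94), Ebi3 (0.93) and Ube2e2 (0.91), the only genes over 0.9. The likeness to Il10 leans on the library of Arntl-/- BMDMs at 48 h, without which r was 0.90 for Nr1i3, 0.85 for Ccr2 and 0.73 for Stfa2.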

How the data were processed

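PolyA RNA-seq of BMDMs (8 libraries, 1 for each genotype and time) was analyzed, with groups taken from the titles and treatments of the samples. Per the file headers and the labels, the authors aligned paired-end reads to mm9 with STAR and counted them with HOMER on exons of RefSeq transcripts, on both strands, with at most 3 tags per position and 1 transcript per gene; the FPKM they deposited are per 10000000 reads and kb of exon. The protocol also names normalization with DESeq2, which the header of the table does not mention. Versions are not given in the sources used here. Exon lengths and coordinates are as deposited. Of 12 value columns, 4 belong to time points of no sample given here and were not used, and the table held 24016 genes once 1 incomplete line had been dropped.

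When multiplied by exon length, values were whole multiples of what 1 read is worth (100% of the low values examined, within 0.05 read), which gave the reads behind each value and, as their sum, 8587560 to 27036783 reads on genes per library. Values were scaled by size factors (median of ratios) and compared as log2(scaled FPKM + 0.1) among the 11981 genes with a mean of at least 20 reads. This scale understates changes between low values over 0. Where a library has no read, the size of the change depends on the pseudocount. The log2 difference of Il6 between genotypes at 0 h ran from 2.66 to 9.06 over the alternatives below. With 1 library per condition no test was made, and at least 1.5-fold counted as a call. Intervals are exact conditional binomial intervals (95%) of the ratio of reads and exact Poisson intervals of single values. Named were the 10 cytokine genes, up to 4 genes with the largest differences of each pathway list, and the 3 genes most like each cytokine gene over the floor in all libraries; other genes of the lists (Ebi3, Tnfrsf1a, Tnfrsf1b, Lta, Ltb) are named as partners, receptors or neighbours. The cytokine genes, lists and rules were chosen with earlier results of these data known. Alternatives were the FPKM as deposited, upper-quartile scaling, pseudocounts of 1 and 0.01, a minimum mean of 100 reads and no minimum. A correction for expression level (lowess, fraction 0.3), reads divided by 6, the share of genes with 20 to 100 reads and r without each library in turn were added after seeing the data.

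Steps were tested on simulated data: of 200 genes changed 3-fold, 100% were called in each genotype comparison, as were 1.15%, 0.553%, 1.28% and 2.28% of the unchanged ones among 11954 genes at 0, 6, 24 and 48 h. The simulated reads were independent, with no groups of reads from 1 fragment and no spread between cultures. These shares thus check the steps under counting error only and are no error rate for the calls made here. No exon of the 10 genes overlaps another gene in GENCODE vM1. Software was scipy 1.17.1, statsmodels 0.14.6, pandas 2.3.3, numpy 2.4.6 and matplotlib 3.10.9 under Python 3.11.15.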

Additional observations from a re-analysis of the deposited data

How the results depend on the processing

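Counts of cytokine genes called depended most on the minimum of reads. With a mean of at least 100 reads only Tnf and Osm were compared, and the counts became 0 between genotypes at 0, 6, 24 and 48 h, 0 for 6 against 0 h in both genotypes, 0 and 1 for 24 against 6 h in WT and Arntl-/- cells, and 1 for 48 against 24 h in each. With no minimum, all 10 were compared and the counts became 3, 3, 2 and 4 between genotypes at the successive times, 5 for each successive step in WT BMDMs, and 6, 6 and 5 for those in Arntl-/- BMDMs. The FPKM as deposited gave 5 for 24 against 6 h in WT cells (Tnf and Il27 lower besides), where they moved the median log2 difference of all genes to -0.20, the largest such shift. Over all genes, calls per comparison ranged from 1002 to 2741 as reported, 414 to 1670 with at least 100 reads and 4120 to 5685 with no minimum; these settings differ in the genes compared.

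Scaling, pseudocount and the correction for expression level changed no genotype call of the 7 genes. They changed time calls of Il12a from 0 to 6 h in WT cells, of Tnf, Il10, Il27 and Lif from 6 to 24 h in WT cells, of Tnf from 6 to 24 h in Arntl-/- cells and of Lif from 24 to 48 h in Arntl-/- cells; the cause was not tested. No direction reversed among called values. Of 87 single differences, 3 moved beyond their counting interval with the FPKM as deposited and 7 with the correction for expression level, all of them of Tnf. The labels carry no replicate numbers, so no fit with a replicate block was made. The genotypes can be paired by time, and the mean log2 difference of Il12a over the 4 times was 0.85 (SD 0.53); this was not tested, since the times are different conditions and not replicates. Depth limits Il12b, Il23a and Ifnb1 to a description, and the spread between cultures or mice is unknown for every gene.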
